A study of Mus musculus with 4 samples.

Results

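Ductular and biliary genes were followed in single-nucleus RNA-Seq data of mouse liver. The 9 genes, Sox9, Spp1, Glis3, Bicc1, Cftr, Krt19, Krt7, Epcam and Pkhd1, were taken by name, not by their values, out of 54464 genes in the deposited count matrix. The data held 5193 liver nuclei of 6 female mice. In 3 of them Nampt, the enzyme that salvages nicotinamide for NAD, had been deleted in hepatocytes (HNKO), and 3 were WT. All 6 were on a C57BL6/BomTac background and carried the floxed (cKO) Nampt alleles on both chromosomes, so that WT stands for floxed littermates without Cre, and HNKO mice also carried 1 copy of Alb-Cre. Alb-Cre is a recombinase under the promoter of albumin, a gene of hepatocytes and of their fetal precursors. Mice entered the purified control diet at 8 to 12 weeks of age and stayed on it for 6 weeks before the nuclei were isolated. Nuclei of each mouse were stained with a hashtag antibody, sorted (4250 per mouse) and pooled, and mice were told apart by their hashtags. The comparisons asked in which cells these transcripts are found and whether they differ by genotype. Mice are numbered by hashtag only, and values by mouse are always given in the order of mice 1, 2 and 3.

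Cholangiocytes line the bile ducts, and carry a primary cilium that hepatocytes lack. Sox9 is a transcription factor of the ductal fate, Spp1 (osteopontin) is a secreted matrix protein, and Krt7, Krt19 and Epcam are the keratins and the adhesion molecule by which ducts are stained. Pkhd1 (fibrocystin) is a protein of the primary cilium, Bicc1 an RNA-binding protein and Glis3 a transcription factor, and loss of any of them gives cysts in the kidney, and Cftr is the chloride channel that drives ductal secretion. In injured liver, a ductular reaction raises the number of such cells, and hepatocytes may take up some of these genes.

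The genes differ widely in the length of DNA they span, and unspliced RNA was counted with spliced RNA, which made up 21.2% of all UMIs by the deposited cell table. Pkhd1 spans 560 kb on chromosome 1 (20057779 to 20618082 in GRCm38, minus strand), Glis3 421 kb on chromosome 19, Bicc1 237 kb on chromosome 10 and Cftr 152 kb on chromosome 6. The other 5 span 5.12 to 15.4 kb. Levels below are counts of unique molecular identifiers (UMIs), scaled to the total of the nuclei summed (CPM), and are compared for 1 gene across nuclei, not between genes, unless they are divided by the span, introns included. A nucleus was called positive for a gene at an estimated count of at least 0.5.

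Start regions are shown for 3 genes that the results turn on, as the 250 bases before the transcript start used by RefSeq (GRCm38.p6), read 5′ to 3′ on the gene's strand. Pkhd1 is shown as the gene that hepatocytes share with cholangiocytes, Spp1 as one that marked both cholangiocyte clusters, and Cftr as the one that separated them.
Pkhd1: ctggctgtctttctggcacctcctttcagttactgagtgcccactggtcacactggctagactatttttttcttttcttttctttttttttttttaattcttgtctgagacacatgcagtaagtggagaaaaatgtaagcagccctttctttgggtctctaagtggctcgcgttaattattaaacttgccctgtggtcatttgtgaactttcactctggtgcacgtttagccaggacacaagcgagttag
Spp1: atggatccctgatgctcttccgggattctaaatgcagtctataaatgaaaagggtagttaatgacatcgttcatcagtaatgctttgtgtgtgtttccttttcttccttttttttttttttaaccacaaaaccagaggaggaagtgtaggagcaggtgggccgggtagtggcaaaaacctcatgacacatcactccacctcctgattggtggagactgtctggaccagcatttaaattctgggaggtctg
Cftr: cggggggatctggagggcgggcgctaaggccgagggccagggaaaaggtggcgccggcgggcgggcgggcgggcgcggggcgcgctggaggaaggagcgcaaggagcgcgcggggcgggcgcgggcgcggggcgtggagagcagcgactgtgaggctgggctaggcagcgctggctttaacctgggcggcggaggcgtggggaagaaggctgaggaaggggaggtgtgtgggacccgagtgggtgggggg
These windows lie at chr1:20618058-20618307 (minus strand), chr5:104434861-104435110 (plus strand) and chr6:18170437-18170686 (plus strand). For Pkhd1 the start used for the window lies inside the span given above, so that the beginning of the span and the window overlap. Of the 9 genes, 6 had an entry, and Sox9, Bicc1 and Krt19 had none. The GC content was 42.0% for Pkhd1, 43.6% for Spp1 and 76.4% for Cftr.

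The authors named 2 clusters Cholangiocyte 1 (76 nuclei) and Cholangiocyte 2 (34 nuclei), in which every nucleus but 2 was from an HNKO mouse. HNKO mice gave 40, 10 and 58 of these nuclei and WT mice 1, 1 and 0. For WT mouse 3, 0 of 724 nuclei leaves room for about 0.414%, taking 3 counts as the limit. Cholangiocyte 1 held no WT nucleus and 1 nucleus of HNKO mouse 2, so that its values are those of HNKO mice 1 and 3. Hepatocyte nuclei numbered 562 to 847 per mouse with 3524497 to 6635290 UMIs, and their median depth was 3572 to 4162 UMIs in WT mice and 4800 to 5786 UMIs in HNKO mice. The mouse's own hashtag took a median of 45.5% of hashtag counts in HNKO mouse 3 and 65.2% to 78.0% in the others.

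Pkhd1, Bicc1, Glis3 and Spp1 marked both Cholangiocyte clusters. In Cholangiocyte 1, Pkhd1 stood at 4553 CPM, Bicc1 at 2805 CPM, Glis3 at 2661 CPM and Spp1 at 1172 CPM, and 98.7%, 97.4%, 92.1% and 90.8% of its nuclei were positive. In Cholangiocyte 2 they stood at 9872, 4528, 4185 and 1280 CPM, with 100%, 100%, 100% and 94.1% of nuclei positive. All 4 were found together in 61 of 76 and in 32 of 34 nuclei. These genes were among those on which the nuclei had been clustered, so their levels against other clusters are given without a test.

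Cftr separated the clusters. In Cholangiocyte 2 it stood at 643 CPM (95 UMIs) and 67.6% of nuclei were positive (exact 95% binomial interval 49.5% to 82.6%). In Cholangiocyte 1 only 6 UMIs were counted, which is 11.6 CPM, and 3.95% of nuclei were positive (0.822% to 11.1%). Median depth was similar, 4164 and 4780 UMIs per nucleus. Within HNKO mouse 1, Cftr was at 4.52 CPM in Cholangiocyte 1 and 664 CPM in Cholangiocyte 2, and within HNKO mouse 3 at 17.3 and 943 CPM. The gap was thus present inside each of the 2 mice that filled both clusters. In HNKO mouse 2, Cftr was lower in Cholangiocyte 2, at 55.6 CPM with 2 of 9 nuclei positive (22.2%), against 90.0% and 76.9% in HNKO mice 1 and 3.

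**Figure D1:**
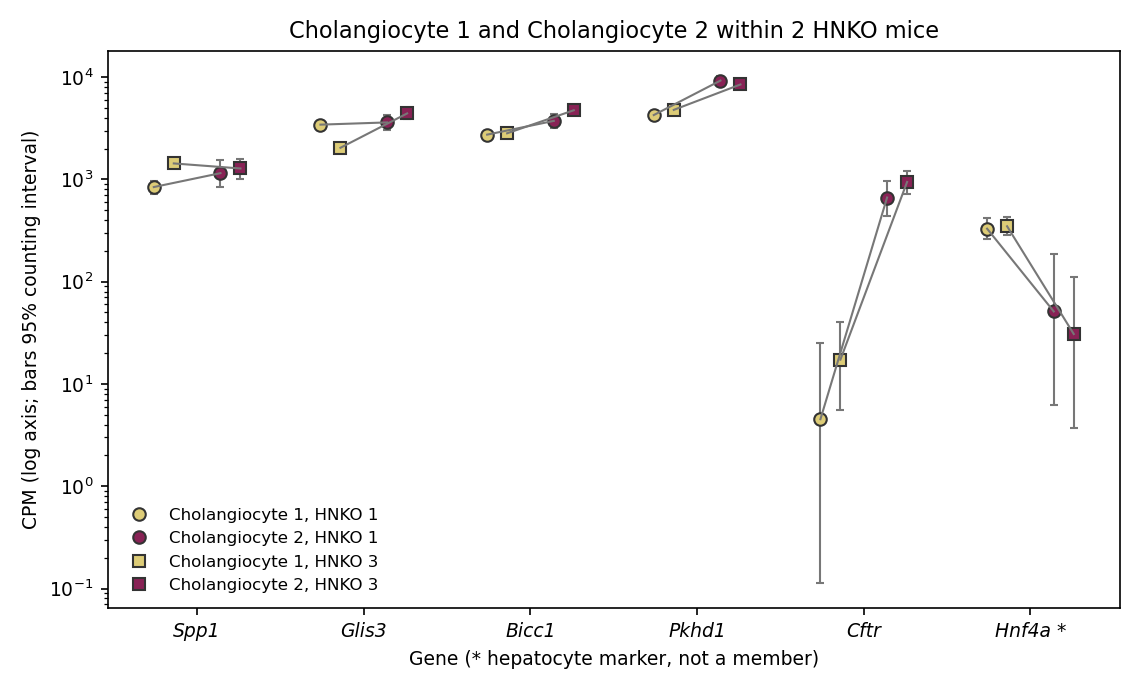
CPM (log axis) of 5 biliary genes and of Hnf4a in Cholangiocyte 1 (yellow) and Cholangiocyte 2 (purple) within HNKO mouse 1 (circles) and HNKO mouse 3 (squares), with 95% counting intervals and a line joining both clusters of a mouse. Cftr goes from 4.52 and 17.3 CPM to 664 and 943 CPM, whereas Hnf4a is lower in Cholangiocyte 2 in both mice.

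The keratins and Epcam were near the limit of detection. Krt19 gave 3 UMIs in all, each in a different Cholangiocyte 2 nucleus. Krt7 and Epcam gave 6 UMIs each in Cholangiocyte 2 (17.6% of nuclei) and 1 and 4 UMIs in Cholangiocyte 1. Sox9 was seen in both, with 26 UMIs and 23.7% of nuclei in Cholangiocyte 1 (14.7% to 34.8%) and 6 UMIs and 11.8% of nuclei in Cholangiocyte 2 (3.30% to 27.5%), so that the intervals overlap. Divided by span, the level in Cholangiocyte 2 was 215 CPM per kb for Spp1, 17.6 for Pkhd1, 19.1 for Bicc1, 9.93 for Glis3, 7.32 for Sox9, 4.23 for Cftr, and 2.64 to 3.97 for Krt7, Epcam and Krt19. Krt19, Krt7 and Epcam rest on 3 to 6 UMIs each in Cholangiocyte 2, and whether counts scale with span was not tested. In Cholangiocyte 1 they were at 0, 0.126 and 0.512 CPM per kb, and Cftr was at 0.0766.

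The label of Cholangiocyte 1 was checked against hepatocyte markers. Hnf4a, the transcription factor of hepatocyte identity, was at 337 CPM in Cholangiocyte 1, inside the range of the hepatocyte clusters (241 to 405 CPM), and at 27.2 CPM in Cholangiocyte 2. Alb stood at 659 CPM in Cholangiocyte 1 and 582 CPM in Cholangiocyte 2, below endothelial nuclei (1412 CPM) and below every hepatocyte cluster (lowest 1981 CPM). Of the 12 cholangiocyte markers, 11 were detected in Cholangiocyte 1 (all but Krt19) and 12 in Cholangiocyte 2, at summed levels of 11913 and 22364 CPM. Over both Cholangiocyte clusters together, Apoa1, Apob, Ttr, Cps1, Serpina1a and Cyp3a11 were at 106, 187, 170, 605, 29.7 and 40.7 CPM, which does not give the level of Cholangiocyte 1 alone. In hepatocyte nuclei they were at 542, 931, 645, 13684, 129 and 329 CPM. In endothelial nuclei they were at 194, 301, 170, 3839, 53.3 and 129 CPM. Cholangiocyte 1 thus carried most ductal genes with little Cftr and no Krt19. Beside them it had Hnf4a at a hepatocyte level, but Alb at less than that of endothelial nuclei. Both WT nuclei fell in Cholangiocyte 2. The one of WT mouse 2 (4825 UMIs) held 92 UMIs of Pkhd1, 26 of Bicc1, 15 of Glis3, 9 of Spp1, 4 of Cftr and 2 of Sox9, and the one of WT mouse 1 (1963 UMIs) held 18, 4.97, 8, 3, 1 and 0 of these.

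**Figure D2:**
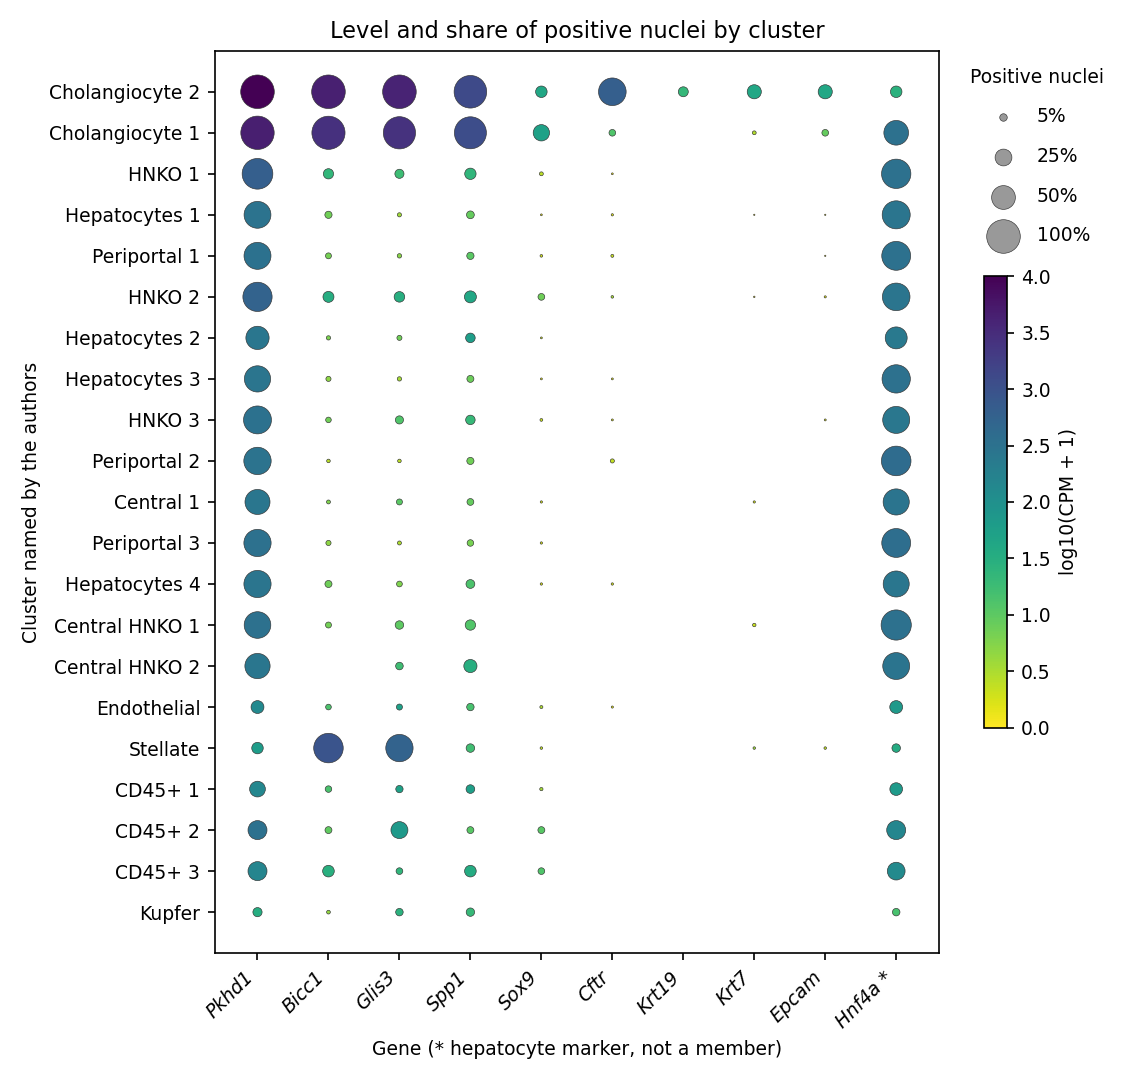
Level (color, log10 of CPM + 1) and share of positive nuclei (dot area) of the 9 genes and of the hepatocyte marker Hnf4a in the 21 clusters. Both Cholangiocyte clusters lead in Pkhd1, Bicc1, Glis3 and Spp1, Stellate follows in Bicc1 and Glis3 with 903 and 542 CPM, and dots are missing where no nucleus was positive.

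Outside the Cholangiocyte clusters, each gene had its own pattern. Pkhd1 was not limited to ductal nuclei, with 266 to 644 CPM in the 13 hepatocyte clusters and 47.9% to 83.4% of nuclei positive, and hepatocyte nuclei held 74.1% of all Pkhd1 UMIs. In CD45+, endothelial, stellate and Kupffer nuclei Pkhd1 was at 197, 130, 62.9 and 32.9 CPM. Bicc1 and Glis3 were strong in stellate nuclei, at 903 and 542 CPM with 77.2% and 66.1% of nuclei positive. All 6 stellate markers were detected there in every mouse, and Cftr and Krt19 were at 0. Spp1 was low in every other cluster, from 5.73 CPM in Periportal 3 to 58.8 CPM in Hepatocytes 2, where 1 nucleus of HNKO mouse 3 held 27 of 59 UMIs and the level without it was 32.0 CPM. Glis3 in endothelial nuclei also rested on 1 nucleus, which held 37 of the 44 UMIs of HNKO mouse 1. Krt19 was at 0 in all 4410 hepatocyte nuclei, so that at most 0.0680% could have held a UMI.

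Across the 21 clusters, the log2(CPM + 1) levels of Glis3 and Bicc1 ran most alike among the 6 genes with at least 50 UMIs (Pearson's r = 0.90), and those of Glis3 and Pkhd1 least (r = 0.49). Among all genes with at least 50 UMIs, Cftr was most like Nipal2 (r = 0.95), Anxa13 (0.94) and Asz1 (0.94), of which Asz1 is a neighbor that lies 61625 bases from Cftr. Genes much like Pkhd1 were Sorbs2 (0.94) and Cdcp1 (0.92). Bicc1 was most like Rragd (0.95), Pkia (0.93) and Sobp (0.93), Glis3 most like Cplane1, Smarcad1 and Katnip (0.93 each), Spp1 most like ENSMUSG00000112290 (0.91), Pak6 (0.90) and Plch1 (0.90), and Sox9 most like Stt3b (0.91), Senp6 (0.91) and Epdr1 (0.90). These correlations are over 21 clusters that share mice and libraries, and they describe these clusters only.

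The first comparison asked whether the genes differed between HNKO and WT livers when all nuclei of a mouse were summed. Of the 5 genes that passed the count filter, Cftr did so only with the counts of HNKO mice, so that its direction is no support. All 5 had a higher mean level in HNKO, but the 3 HNKO mice were far apart. HNKO mouse 2 was the lowest of them for all 5, above WT in Bicc1 and Glis3 and near or within the WT range in Pkhd1, Spp1 and Cftr. Bicc1 was at 12.7, 18.0 and 17.0 CPM in WT and at 143, 52.0 and 227 CPM in HNKO mice. Glis3 was at 22.7, 16.0 and 16.9 CPM in WT and 149, 46.8 and 165 CPM in HNKO mice. For both genes every HNKO mouse was above every WT mouse. Pkhd1 also did not overlap, at 289, 332 and 280 CPM in WT and 689, 337 and 708 CPM in HNKO mice, but HNKO mouse 2 exceeded WT mouse 2 only slightly. Of all genes tested, 15.8% had every HNKO mouse above every WT mouse. Spp1 did overlap, at 10.1, 16.5 and 7.66 CPM in WT and 54.2, 14.5 and 111 CPM in HNKO mice, and so did Cftr, at 0.929, 1.91 and 0.745 CPM against 3.67, 1.81 and 10.9 CPM. Sums over all nuclei do not tell fewer nuclei of a type from less RNA per nucleus.

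No gene of the 9 passed the false discovery rate (FDR) of 0.05 in edgeR's quasi-likelihood test, in which 0% of 13070 genes were called. The log2 fold change (HNKO over WT) was 2.87 ± 0.44 (SE, n = 3 and 3) for Bicc1 and 2.46 ± 0.43 for Glis3, both with an edgeR adjusted p of 0.446. It was 2.10 ± 0.60 for Spp1 (edgeR adjusted p = 0.536), 1.79 ± 0.64 for Cftr (adjusted p = 0.542) and 0.73 ± 0.28 for Pkhd1 (adjusted p = 0.556). The unadjusted edgeR p was below 0.05 for these 5, against 8.52% of all genes, but Cftr was tested only because of its HNKO counts. Calls depended on the tool and on 1 mouse. DESeq2 called 3 of them, Bicc1 (adjusted p = 3.88e-07), Glis3 (4.88e-05) and Spp1 (0.0436), among 0.482% of genes. Without HNKO mouse 2, edgeR called 4, Bicc1 (adjusted p = 0.00319), Glis3 (0.00611), Spp1 (0.0359) and Sox9 (0.0363), among 0.688% of genes, and without the count filter it called Bicc1 (adjusted p = 0.000186), Glis3 (0.000833), Spp1 (0.0205) and Sox9 (0.0340), among 0.3%. The highest adjusted p over the alternatives was 0.811 for each of them. Sox9 had not passed the filter in the comparison of all 6 mice. Without HNKO mouse 2 it passed only through HNKO mice 1 and 3, so that this call is no separate support. Its level was 0.531, 0.479 and 0.426 CPM in WT and 3.99, 1.69 and 5.62 CPM in HNKO mice, on 84 UMIs in all. Krt19, Krt7 and Epcam, with 3, 13 and 16 UMIs, did not pass the filter either, and without it their edgeR adjusted p-values were 0.988, 0.949 and 0.774.

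**Figure D3:**
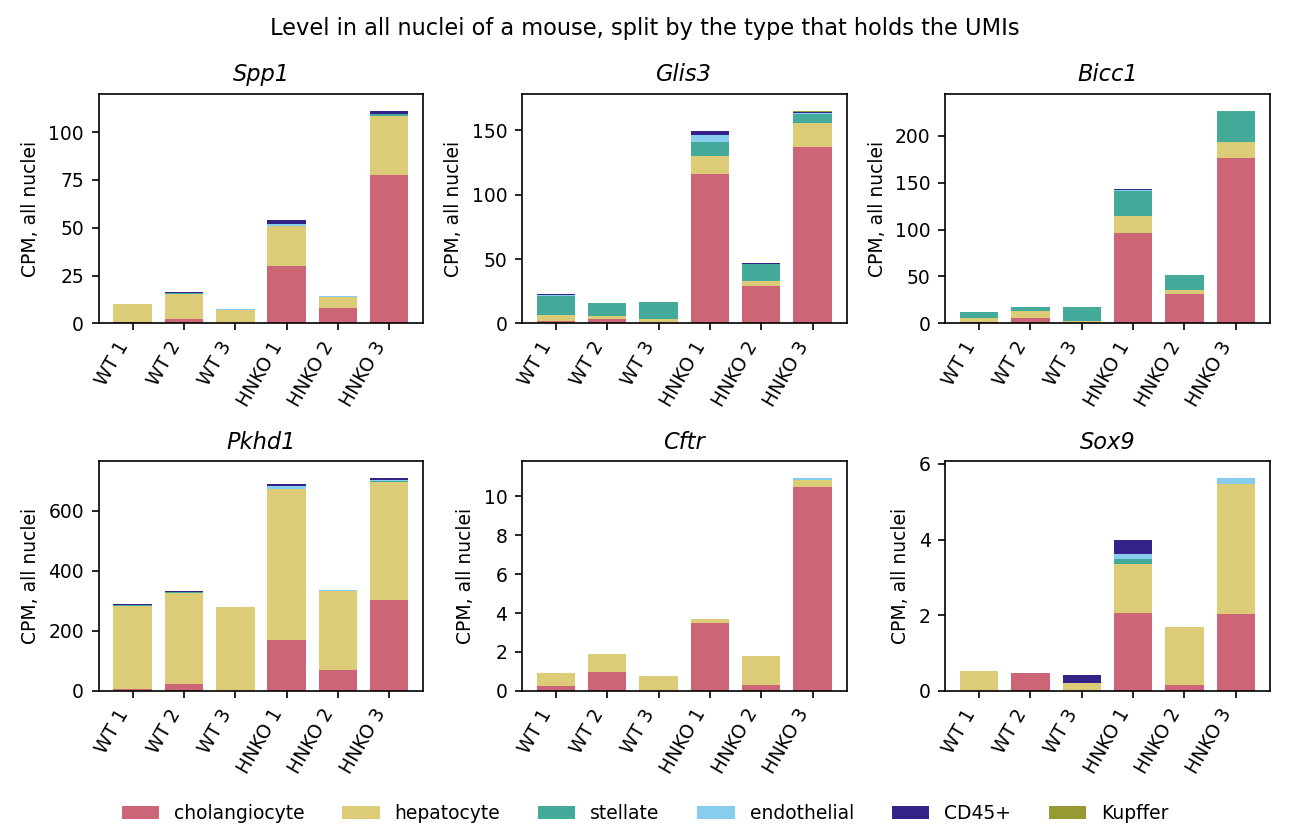
Level of 6 genes over all nuclei of each mouse (CPM, stacked bars from 0), split by the cell type that holds the UMIs. Cholangiocyte nuclei (red) make up most of Glis3 and Bicc1 in HNKO mice 1 and 3, while hepatocyte nuclei (yellow) hold most of Pkhd1 in every mouse.

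In HNKO mice, much of the whole-liver level came from the few cholangiocyte nuclei. They held 87.1% of the Cftr UMIs of HNKO mice, 77.9% of Glis3, 71.9% of Bicc1, 63.7% of Spp1, 38.5% of Sox9 and 30.6% of Pkhd1. In WT mice, the 2 cholangiocyte nuclei held 33.3% of Cftr (of 15 UMIs), 9.91% of Glis3, 15.3% of Bicc1, 8.39% of Spp1, 33.3% of Sox9 (of 6 UMIs) and 2.90% of Pkhd1. Stellate nuclei there held 69.0% of Glis3 and 52.6% of Bicc1, and hepatocyte nuclei 86.0% of Spp1 and 95.8% of Pkhd1. Without the 110 cholangiocyte nuclei the log2 fold change was 1.38 ± 0.35 for Bicc1, 0.87 ± 0.51 for Spp1, 0.53 ± 0.31 for Glis3 and 0.32 ± 0.28 for Pkhd1, and edgeR adjusted p-values were 0.674 to 0.787. Cftr then no longer passed the filter. HNKO mouse 2 differed from the others here, in that 83.0% of its 12 Cftr UMIs were in hepatocyte nuclei, 7 of them in a single nucleus.

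Within hepatocyte nuclei, Glis3, Bicc1, Spp1 and Pkhd1 were also higher in HNKO mice 1 and 3 but not in HNKO mouse 2. Glis3 was at 4.97, 2.53 and 3.26 CPM in WT and at 16.8, 4.34 and 21.7 CPM in HNKO mice. Bicc1 was at 4.99, 7.74 and 3.10 CPM in WT and 20.3, 4.94 and 20.5 CPM in HNKO mice. Spp1 was at 9.93, 14.2 and 7.19 CPM in WT and 24.7, 6.18 and 35.8 CPM in HNKO mice. For all 3, HNKO mouse 2 lay within or below the WT range. Pkhd1 was at 298, 322 and 293 CPM in WT and 588, 285 and 456 CPM in HNKO mice, where HNKO mouse 2 was the lowest of all 6. Sox9 alone did not overlap between genotypes, at 0.567, 0 and 0.225 CPM in WT (2, 0 and 1 UMIs) and 1.51, 1.67 and 4.00 CPM in HNKO mice (10, 10 and 22 UMIs). Among all genes tested in hepatocytes, 10.2% had every HNKO mouse above every WT mouse.

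None of the 4 genes that passed the filter in hepatocytes was called by edgeR (0% of 11810 genes were). The log2 fold change was 1.80 ± 0.56 for Glis3 (edgeR adjusted p = 0.820, 0.0670 to 0.977 over the alternatives), 1.35 ± 0.55 for Bicc1 (edgeR adjusted p = 0.820, 0.169 to 0.977), 0.89 ± 0.53 for Spp1 (0.820, 0.193 to 1.00) and 0.41 ± 0.31 for Pkhd1 (0.838, 0.504 to 1.00). Glis3 and Bicc1 had an unadjusted edgeR p below 0.05, as had 5.91% of genes. DESeq2 called none of the 4, and 0.178% of genes, and edgeR without HNKO mouse 2 called none, and 0.266% of genes. For Pkhd1 the direction rested on HNKO mouse 1, without which the log2 fold change was -0.01. Sox9, Cftr, Krt7 and Epcam did not reach the count filter, and Cftr was near the limit of detection in hepatocyte nuclei of either genotype. It was at 0.709, 1.01 and 0.787 CPM in WT and 0.226, 1.63 and 0.455 CPM in HNKO mice, and without the single nucleus that held 7 of its UMIs HNKO mouse 2 was at 0.460 CPM.

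**Figure D4:**
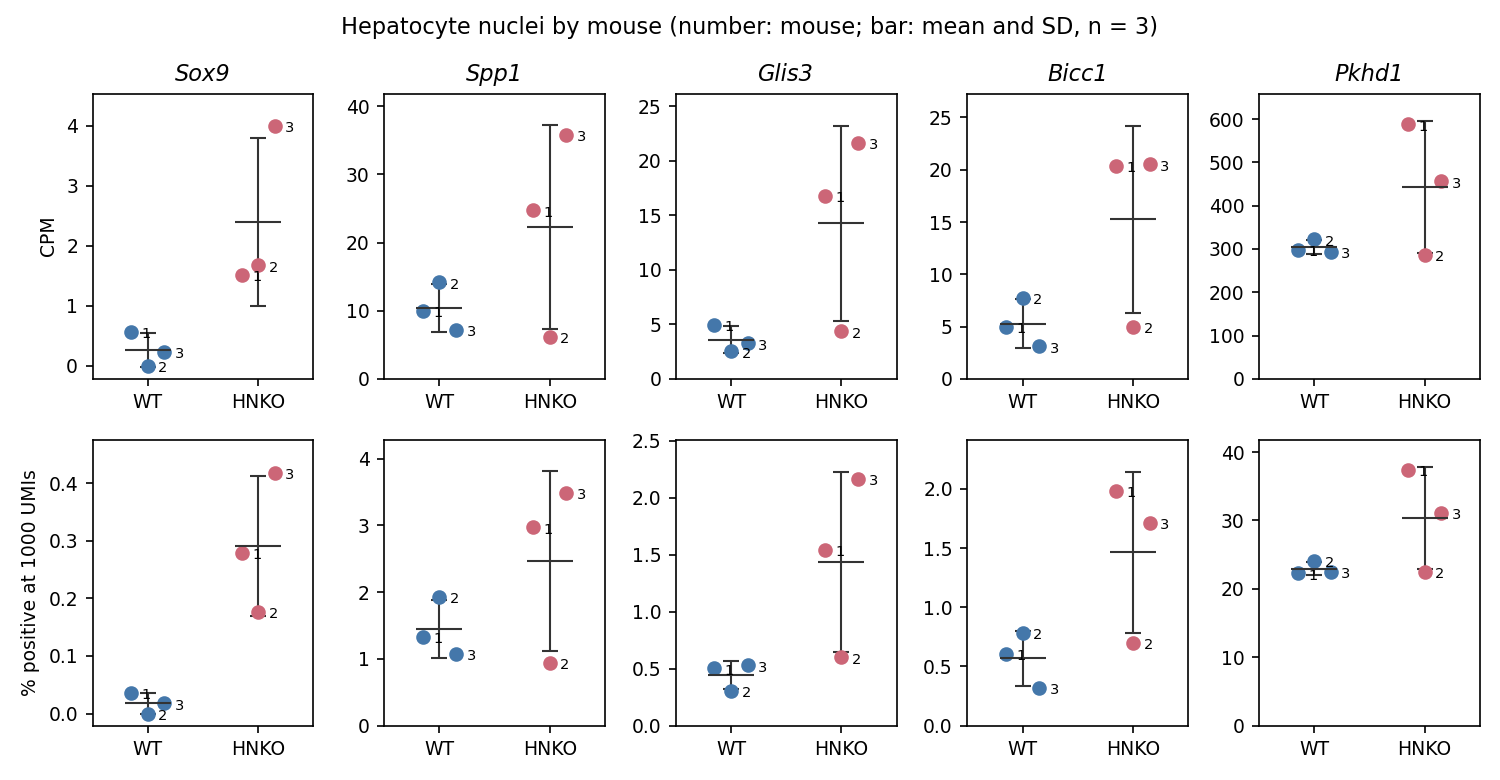
Hepatocyte nuclei of each mouse (WT blue, HNKO red, numbers name the mouse, bars are mean and SD of 3 mice), with CPM above and the share of positive nuclei after thinning to 1000 UMIs below. For Spp1, Glis3, Bicc1 and Pkhd1 HNKO mice 1 and 3 lie above WT and HNKO mouse 2 does not exceed the WT range in CPM.

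Shares of positive hepatocyte nuclei were highest in HNKO mice 1 and 3 for Glis3, Spp1, Bicc1 and Pkhd1. For Glis3 they were 2.49%, 1.26% and 1.98% in WT and 7.27%, 1.83% and 7.91% in HNKO mice. For Spp1 they were 5.16%, 6.03% and 4.72% in WT and 11.5%, 4.40% and 11.5% in HNKO mice, and for Bicc1 2.85%, 3.79% and 1.67% in WT and 8.37%, 3.30% and 6.97% in HNKO mice. Sox9 (0.356%, 0% and 0.152% in WT against 1.23%, 1.099% and 2.36%) and Pkhd1 (59.3%, 58.2% and 63.5% against 79.4%, 65.3% and 72.0%) had every HNKO mouse above every WT mouse. That held for 38.6% of all genes tested, and HNKO nuclei were deeper. For Pkhd1, HNKO mouse 2 thus had the lowest level of all 6 mice and yet a higher share than any WT mouse. For each gene the exact two-sided permutation test gave p = 0.1 at the least, which is the smallest value that 3 against 3 mice allow. After each nucleus was thinned to 1000 UMIs, Sox9 (0.0358%, 0% and 0.0175% against 0.279%, 0.176% and 0.419%) and Glis3 (0.502%, 0.305% and 0.529% against 1.54%, 0.600% and 2.16%) did not overlap, against 11.1% of genes, and Pkhd1 no longer did so (22.3% to 24.1% against 22.5% to 37.4%). Without HNKO mouse 2, unthinned shares of 5 of the 9 genes did not overlap, as those of 48.3% of all genes.

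These shares were set beside those of endothelial, Kupffer and CD45+ nuclei, whose own expression of these genes was not tested. In HNKO endothelial nuclei (median depth 3041 UMIs against 5257 UMIs in HNKO hepatocyte nuclei), thinned shares were 1.89% for Spp1, 2.06% for Glis3, 1.40% for Bicc1 and 0.320% for Sox9. In HNKO hepatocyte nuclei they were 2.48%, 1.44%, 1.46% and 0.293%. In HNKO Kupffer nuclei (median depth 2955 UMIs) they were 2.70%, 2.39%, 0.662% and 0%, and in HNKO CD45+ nuclei (3276 UMIs) 2.93%, 3.90%, 1.07% and 0.458%. For Spp1 and Sox9 the hepatocyte share lay within the range of these 3 types, for Glis3 it lay below all of them, and for Bicc1 it lay slightly above the highest. The Sox9 share of endothelial nuclei rests on 2 UMIs. With at least 1.5 estimated counts asked for and no thinning, 2.26% of HNKO hepatocyte nuclei were positive for Spp1, 2.14% for Glis3 and 2.06% for Bicc1, against 0%, 1.83% and 0.610% of the shallower endothelial nuclei. As means over HNKO mice, CD45+ nuclei were at 1.23%, 3.49% and 1.28%, against 2.24%, 2.13% and 2.05% in hepatocyte nuclei. Kupffer nuclei of both genotypes together were at 1.25%, 1.25% and 0%. Pkhd1 stood apart, with thinned shares of 30.3% in hepatocyte and 5.98% in endothelial nuclei of HNKO mice. In CD45+ nuclei it was at 11.2% as a mean over HNKO mice, and in Kupffer nuclei of both genotypes together at 2.36%. The ratio of counts differed from that of the cholangiocyte nuclei for Spp1. In HNKO mice 1 and 3, there were 1.22 and 1.75 Spp1 UMIs per Bicc1 UMI in hepatocyte nuclei, and 0.308 and 0.442 in cholangiocyte nuclei. For Glis3 the ratios were closer, at 0.824 and 1.06 in hepatocyte nuclei and 1.197 and 0.780 in cholangiocyte nuclei. The part of free RNA in these values was not tested.

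A few hepatocyte nuclei held several of the genes at once. Leaving out Pkhd1, which most hepatocyte nuclei hold, 40, 7 and 42 nuclei of HNKO mice (4.93%, 0.855% and 4.96%) and 5, 4 and 3 nuclei of WT mice (0.890%, 0.561% and 0.457%) were positive for at least 2. At least 3 were found in 7, 1 and 11 HNKO nuclei and in 1, 0 and 0 WT nuclei. These counts were not thinned, although HNKO hepatocyte nuclei were deeper, and these 20 nuclei had a median of 6790 UMIs. In the 7 nuclei of HNKO mouse 1 and the 11 of HNKO mouse 3, Pkhd1, which had not been used to pick them, was at 1975 and 1734 CPM, between the level of hepatocyte nuclei of these mice (588 and 456 CPM) and that of Cholangiocyte 1 (4252 and 4777 CPM). Alb remained at 3678 and 2620 CPM in them, well above both Cholangiocyte clusters, and Cftr was at 0. In the single nuclei of HNKO mouse 2 and WT mouse 1, Pkhd1 was at 171 and 259 CPM, below the lowest hepatocyte level of any mouse (285 CPM). The part of doublets within a mouse was not tested. Without these 20 nuclei, a setting chosen after seeing the data, the hepatocyte log2 fold change was 1.65 for Glis3, 1.12 for Bicc1 and 0.64 for Spp1, again with no call.

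Among hepatocyte clusters, the highest Glis3, Bicc1, Sox9 and Pkhd1 were each in a cluster filled by HNKO mouse 1 or 3, but not every such cluster was high. For Spp1 the highest was in such a cluster only once the single nucleus in Hepatocytes 2 was left out (58.8 CPM with it, 32.0 CPM without). Cluster HNKO 2, with 479 of its 494 nuclei from HNKO mouse 3, had 39.8 CPM of Spp1, 30.4 of Glis3, 30.7 of Bicc1 and 6.73 of Sox9. Cluster HNKO 1, with 658 of 664 nuclei from HNKO mouse 1, had 23.4, 16.9, 22.7 and 1.63 CPM of these and the highest Pkhd1 of the hepatocyte clusters (644 CPM). Cluster HNKO 3 (285 of 288 nuclei from HNKO mouse 3) was lower, with 19.6 CPM of Spp1, 11.5 of Glis3, 6.33 of Bicc1 and 316 of Pkhd1. Hepatocytes 1 and Periportal 1 had 7.86 and 9.58 CPM of Spp1 and 2.69 and 4.07 CPM of Glis3. They were filled mostly by WT mouse 2 (345 and 241 nuclei) and HNKO mouse 2 (292 and 373 nuclei), so that their values stand mostly for these mice. In clusters HNKO 1, 2 and 3, cluster and mouse cannot be told apart. Central HNKO 2 (78 nuclei, all of HNKO mouse 3) showed 30.1 CPM of Spp1 and no Bicc1 UMI.

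In stellate nuclei, the collagen-forming cells of the liver, Bicc1 and Glis3 went in opposite directions. Bicc1 was at 286, 308 and 660 CPM in WT and at 1225, 679 and 1531 CPM in HNKO mice. Glis3 was at 692, 706 and 639 CPM in WT and 486, 596 and 325 CPM in HNKO mice. In CPM, every HNKO mouse was above every WT mouse for Bicc1, as for 6.35% of genes tested, and every HNKO mouse was below every WT mouse for Glis3, as for 4.99%. For Bicc1, WT mouse 3 and HNKO mouse 2 were nearly level. Shares of Bicc1-positive nuclei overlapped (lowest HNKO mouse 73.5%, highest WT mouse 81.5%), unlike those of Glis3 (highest HNKO mouse 61.8%, lowest WT mouse 77.8%). The log2 fold change was 1.41 ± 0.41 for Bicc1 (edgeR adjusted p = 0.633, 0.0560 to 0.998 over the alternatives) and -0.55 ± 0.31 for Glis3 (edgeR adjusted p = 0.794, 0.305 to 0.999), and neither was called (0% of 2266 genes were). Bicc1 had an unadjusted edgeR p of 0.00530, where 7.06% of genes were below 0.05, and DESeq2 called neither (0.0441% of genes were called). Without HNKO mouse 2, edgeR called neither among 2.12% of genes. The summed stellate markers were lower in the same mice in which Glis3 was lowest, at 11258 and 10055 CPM in HNKO mice 1 and 3 while the other 4 mice were between 19981 and 23674 CPM, and their part in both values was not tested. Cftr and Krt19 stayed at 0 and Pkhd1 at 13.7 to 162 CPM in HNKO stellate nuclei, against 8460 to 11956 CPM in Cholangiocyte 2.

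**Figure D5:**
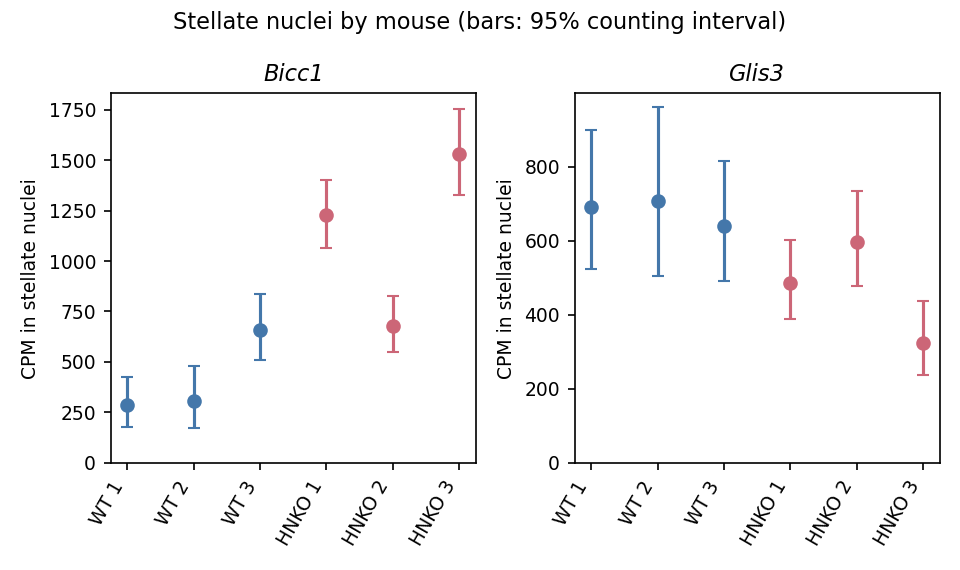
Bicc1 and Glis3 in stellate nuclei of each mouse (CPM from 0, WT blue, HNKO red, bars are 95% counting intervals of 16 to 43 nuclei). Bicc1 is highest in HNKO mice 1 and 3, and Glis3 is lowest in HNKO mouse 3.

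In endothelial and CD45+ nuclei only Pkhd1 had enough counts for a test. It was at 71.6, 94.7 and 90.0 CPM in WT and 208, 67.3 and 128 CPM in HNKO endothelial nuclei (log2 fold change 0.66 ± 0.45, edgeR adjusted p = 0.996). In CD45+ nuclei it was at 142 and 164 CPM in WT mice 1 and 2 and at 226, 109 and 263 CPM in HNKO mice (0.39 ± 0.52, edgeR adjusted p = 0.944), where WT mouse 3 was left out with 7 nuclei. Genotypes overlapped in both, while 4.92% and 14.7% of genes had every HNKO mouse above every WT mouse. Pkhd1 was not called by edgeR or DESeq2 in either, nor was its unadjusted p below 0.05 (3.79% and 8.21% of genes). The edgeR test called 0% of genes in both. DESeq2 called 0.0365% and 0.148%, and edgeR without HNKO mouse 2 called 0% and 0.387%, Pkhd1 not included. Kupffer nuclei (4 to 29 per mouse) were too few for a test. Spp1 was seen in 7.81% of the 64 HNKO and 0% of the 16 WT Kupffer nuclei, where 0 of 16 allows 18.8%.

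Of a wider list of 35 biliary genes, 21 were tested over all nuclei and none passed an FDR of 0.05 in edgeR. The median log2 fold change was 0.36, against 0.02 over all genes, and 5 had an unadjusted edgeR p below 0.05, all higher in HNKO, against 8.52% of all genes. The 3 with the smallest p were Thsd4, a matrix microfibril protein (28.5 ± 5.37 CPM in HNKO and 7.65 ± 1.81 CPM in WT, SD, n = 3), Slc5a1, a sodium-glucose transporter (6.54 ± 3.51 and 0.815 ± 0.341 CPM), and Cdh1, the epithelial cadherin (57.8 ± 52.0 and 13.5 ± 3.24 CPM). Their log2 fold changes were 1.68, 2.77 and 1.78, with edgeR adjusted p-values of 0.446, 0.494 and 0.536. Slc5a1 was in the test only through its counts in HNKO mice. As for the 9 genes, calls depended on the setting. Thsd4 was called by DESeq2 (adjusted p = 0.000217), by edgeR without the filter (0.00296) and without HNKO mouse 2 (0.0393), and Slc5a1 by DESeq2 (0.0193) and by edgeR without the filter (0.0151). Cdh1 was called by edgeR without the filter (adjusted p = 0.0267), as was Anxa13 (0.0401), and Anxa13 and Ncam1, which are named after their values were seen, without HNKO mouse 2 (0.0359 each). Anxa13 and Ncam1 then passed the filter only through HNKO mice, with WT means of 0.638 and 1.33 CPM. The highest adjusted p over the alternatives was 0.936 for Thsd4 and 0.811 for the other 4. Without the cholangiocyte nuclei the log2 fold change was -0.16 ± 0.42 for Thsd4 (edgeR adjusted p = 0.936), 2.86 ± 0.68 for Slc5a1 and 1.51 ± 0.49 for Cdh1 (0.674 each). In hepatocyte nuclei 17 of the 35 were tested, none was called by edgeR, 2 had an unadjusted p below 0.05 (5.91% of all genes), and the median log2 fold change was 0.21, against 0.02 over all genes. Slc5a1, which had not passed the filter there, was called by edgeR without it (adjusted p = 0.0281, up to 0.977 over the alternatives).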

How the data were processed

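Nuclei from livers of 6 mice (3 WT, 3 HNKO) were sequenced by the authors as 2 RNA pools and 2 hashtag pools with 10x Genomics 3′ chemistry. Fastq files were made with Cell Ranger version 5.0.1, and reads were mapped with Alevin on GRCm38 with the GENCODE M25 gene model. The authors deposited estimated counts of UMIs per gene and nucleus, of which 10.1% of nonzero values were over 0.001 from a whole number. They also deposited hashtag counts per nucleus and a table that gives mouse, genotype and cluster. Nuclei without a hashtag call or with several hashtags had been removed by the authors, and no doublet caller was run here. Their SCTransform matrix was not used. Per the deposited cell table, spliced RNA made up 21.2% of the estimated counts, so that unspliced RNA was counted too. The pool of a nucleus is not given in the sources used here. All 5193 barcodes were unique.

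The 21 clusters were grouped into 6 types. Estimated counts were summed per mouse and type, rounded, filtered with filterByExpr and scaled by TMM. Genotype was tested by the two-sided quasi-likelihood F test of edgeR (version 4.0.16; R version 4.3.3) with Benjamini-Hochberg adjustment (FDR 0.05) where a mouse had at least 10 nuclei. Alternatives were RLE scaling, no filter, DESeq2 version 1.42.0, leaving out each mouse, and leaving out the cholangiocyte clusters. The edgeR script was tested on simulated counts. Mice are the replicates. Levels per mouse are plain CPM, whereas means with SD stem from the rounded sums. Shares are given unthinned and as the mean chance of a UMI after thinning each nucleus to 1000 UMIs, and were compared by exact permutation tests. Intervals of 95% and the limits for a count of 0 (3 counts) cover counting error only. The members, the lists and the tests were chosen with earlier results of these data known. Named beyond the 9 members were the wider-list genes past the FDR or else the 3 with the smallest p, and the 3 genes most alike to each member by Pearson's r over clusters, of which 1 for Pkhd1 is not reported here. Hnf4a, Alb and the other hepatocyte markers were named after their values had been seen. For Krt19, Krt7 and Epcam, with fewer than 50 UMIs, no alike genes are given. Start regions stem from RefSeq. Figures were drawn with matplotlib version 3.10.9.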

Additional observations from a re-analysis of the deposited data

How the results depend on the processing

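No paired analysis was possible because the numbers shared in the labels are those of sequencing pools, each of which held all 6 mice, and mouse numbers only name hashtags. Over all nuclei, 0 of the 9 genes were called by edgeR, 4 without the count filter and 3 by DESeq2. When a mouse was left out, 0 to 4 were called (4 without HNKO mouse 2, with Sox9 in the test only through HNKO mice). Counts of all genes called were 0 with edgeR in every set of nuclei. Without the filter they were 84 over all nuclei, 35 in hepatocyte, 16 in endothelial, 29 in stellate and 23 in CD45+ nuclei, and with DESeq2 63, 21, 1, 1 and 4. When a mouse was left out they were 0 to 90 over all nuclei, 0 to 32 in hepatocyte, 0 to 47 in stellate and 0 to 10 in CD45+ nuclei, each highest without HNKO mouse 2. Leaving out a WT mouse left CD45+ nuclei with 1 WT mouse, assumed to vary like the others. The hepatocyte log2 fold change of Pkhd1 was -0.011 to 0.63 when a mouse was left out, and turned without HNKO mouse 1. Unthinned shares of hepatocyte nuclei did not overlap for 2 genes, and for 2 to 5 when a mouse was left out (5 without HNKO mouse 2). The cause of these changes was not tested. Few UMIs limit Krt19, Krt7, Epcam and Sox9.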
